A study of Rattus norvegicus with 8 samples.

Results

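The genes described here encode the proteins of the cytosolic ribosome. They were picked by name from the whole-genome array: every probe whose gene name begins with Rpl or Rps followed by a number, or is Rplp1, Rplp2 or Rpsa, leaving out the Rps6k kinases. This gave 112 probes of 75 genes, out of 41012 probes of 35561 names on the array. The large subunit had 67 probes of 44 genes and the small subunit 45 probes of 31 genes. Primary thymocytes came from adrenalectomized male Sprague-Dawley rats, with the thymi of 3 rats pooled. Control cells were cultured for 6 hours without dexamethasone, a synthetic glucocorticoid that kills thymocytes by apoptosis, and Dex cells for 6 hours with 100 nM of it. Both groups therefore lack adrenal hormones from the animal, and each had 4 arrays. The ages of the animals are not given in the sources used here.

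A cytosolic ribosome joins a large and a small subunit, each an RNA core dressed with proteins, and cells make these proteins in matched amounts. Their mRNAs are among the most abundant of a growing cell, and most begin with a C followed by a stretch of pyrimidines at the 5′ end, the TOP motif, through which mTOR controls how often they are translated. Glucocorticoids are known to slow growth and protein synthesis in lymphoid cells, and the comparison of Dex with Control asks whether the mRNAs of ribosomal proteins changed in level. A level in a pool of cells does not separate RNA per cell from the number of cells of a type.

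All 112 probes were well above background on all 8 arrays and none was saturated. On the whole array 24911 to 34476 of the probes were well above background on a given array, with the lowest counts on Dex 1 and Dex 2. The 13 thymocyte markers measured were well above background on every array. No marker of thymocytes, macrophages, B cells, stroma and epithelium or erythroid cells was called by limma. By the signal to noise statistic that the study's methods name, 2 of the 35 markers were called, the thymocyte genes Cd5 (log2 fold change -0.70) and Ptcra (-0.61), where 6.79% of all probes were. At an unadjusted p under 0.05 in limma there were 5 of the 35 markers, where 10.4% of all names were. They are these and Rag1 (-0.59), Cd8b (0.52) and C1qb (0.84). The median log2 fold change was -0.13 over the 13 thymocyte markers, 0.12 over the 9 of macrophages, -0.097 over the 5 of B cells, 0.57 over the 5 of stroma and epithelium and 0.45 over the 3 of erythroid cells. Macrophage markers ran both ways, with Cd14 at -0.77. In the stroma list 3 of the 5 markers were well above background on all arrays, Dcn was so on none, and Col1a2 had a value of -0.76. The mean normalised log2 signal of the 5 stroma markers ran from 5.41 to 5.82 on Control arrays and from 5.82 to 6.18 on Dex arrays. The part of other cell types in the values below was not tested. The mean normalised log2 signal of the 3 erythroid markers ran from 6.56 to 8.36 on Control arrays and from 6.82 to 8.78 on Dex arrays.

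The sequence at the start of these genes is shown because the TOP motif is a feature for which the class is known. Promoters of 60 of the 75 genes were found by symbol in the RefSeq table of build GRCr8. Each line gives 10 bases before the annotated start and 20 from it on, 5′ to 3′, and capitals mark the run of 5 or more pyrimidines, beginning with C, that lies nearest the start. The first 6 genes are among those with the largest or smallest changes below, and no such run was found in the windows of Rpl41 and Rpsa.
Rpl10a, chr20:6390523-6390552, + strand: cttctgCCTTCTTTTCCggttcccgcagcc
Rpl37a, chr9:81748081-81748110, + strand: cccgttgcgtCTCTTCCTCTTCgggcttgg
Rpl34, chr2:221962264-221962293, - strand: tCCTTTTCCTCTTCCggggacggtgcttag
Rps27, chr2:177964587-177964616, - strand: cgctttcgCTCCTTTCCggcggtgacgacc
Rps14, chr18:56498250-56498279, + strand: ccgtCTCTCTCTTTCCggtggaggagtctg
Rps21, chr3:187724028-187724057, + strand: agccaCTTCCTTTCTgtgttctccgtagac
Rpl41, chr7:1563478-1563507, - strand: ctcggaagtgacgacaccaagcacgccatt
Rpsa, chr8:128728869-128728898, + strand: ccgcgctaccctggaacgggtccgtacggc

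Of the 60 promoters, 32 (53.3%) had C as the annotated first base, against 24.2% of all 27457 promoters in the table. A C followed by at least 4 more pyrimidines stood exactly at that base in 23 (38.3%), against 2.63% of all promoters. The table holds 723 promoters with such a start, most of them of other genes. The members with it were 16 of the 36 promoters of the large subunit and 7 of the 24 of the small subunit. A C followed by 5 or more pyrimidines lay somewhere in the 30 bases of the window in 42 promoters (70%, against 20.2% of all). Over the 300 bases of each promoter and on both strands, CCGGAAG, the letters of an ETS or GABP site, was present in 19 (31.7%, against 9.21% of all promoters). CTTTCC was present in 29 (48.3%, against 26.5%), AAGATGG, the letters of a YY1 site, in 10 (16.7%, against 7.26%) and GGGCGG, those of an Sp1 site, in 34 (56.7%, against 34.7%). The glucocorticoid response element in its palindromic form was in none of the 60 and in 0.00728% of all promoters. These are matches of letters in a window, and nothing about binding was measured.

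The mRNAs of ribosomal proteins did not pass the test in either direction. None of the 112 probes reached an adjusted p under 0.05 in limma, where 319 of all 41012 probes did (0.778%), 231 of them higher in Dex (0.563%) and 88 lower (0.215%). At an unadjusted p under 0.05 there were 2 member probes, both of the large subunit and both higher in Dex (1.79% of the members, against 10.6% of all probes). The lowest adjusted p among the members was 0.409. By the signal to noise statistic of the study's methods 1 member probe was called, against 6.79% of all probes, and it is a probe of Rps15 described below. All Control arrays lay on the same side of all Dex arrays for 5 member probes, always with Dex higher (4.46%, against 9.1% of all probes).

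The changes were small. With the brightest probe taken for each gene, the median log2 fold change, Dex minus Control, was 0.029 over the 44 genes of the large subunit and 0.034 over the 31 of the small subunit, and -0.00051 over all names on the array. The middle of the large subunit, from the lower to the upper quartile, spanned -0.021 to 0.10, and that of the small subunit -0.020 to 0.070, where all names spanned -0.27 to 0.26. Values above 0 were found for 27 genes of the large and 21 of the small subunit, and below 0 for 17 and 10. For 72 of the 75 genes the 95% interval of the change lay within 2-fold in either direction, and for 67 within 1.5-fold. Among probes of the whole array 49.5% had an interval within 2-fold, and 63.5% of those well above background on all arrays, against 94.6% of the member probes. These widths hold for quantile normalised values, in which 79 of the 112 member probes lay in the brightest 1% of the array by their median rank, where values are set by rank. With arrays scaled to their 75th percentile the interval lay within 2-fold for 65 of the 75 genes and within 1.5-fold for 3. limma draws the spread of each probe toward that of the whole array, which widens the intervals of probes as steady as these. With the spread modelled on the mean level, the median standard error of the members fell to 0.0913 and 9 of them had an unadjusted p under 0.05 (8.04%, against 11.3% of all probes in that fit), still with none called, the lowest adjusted p being 0.121 for Rps27.

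**Figure D1:**
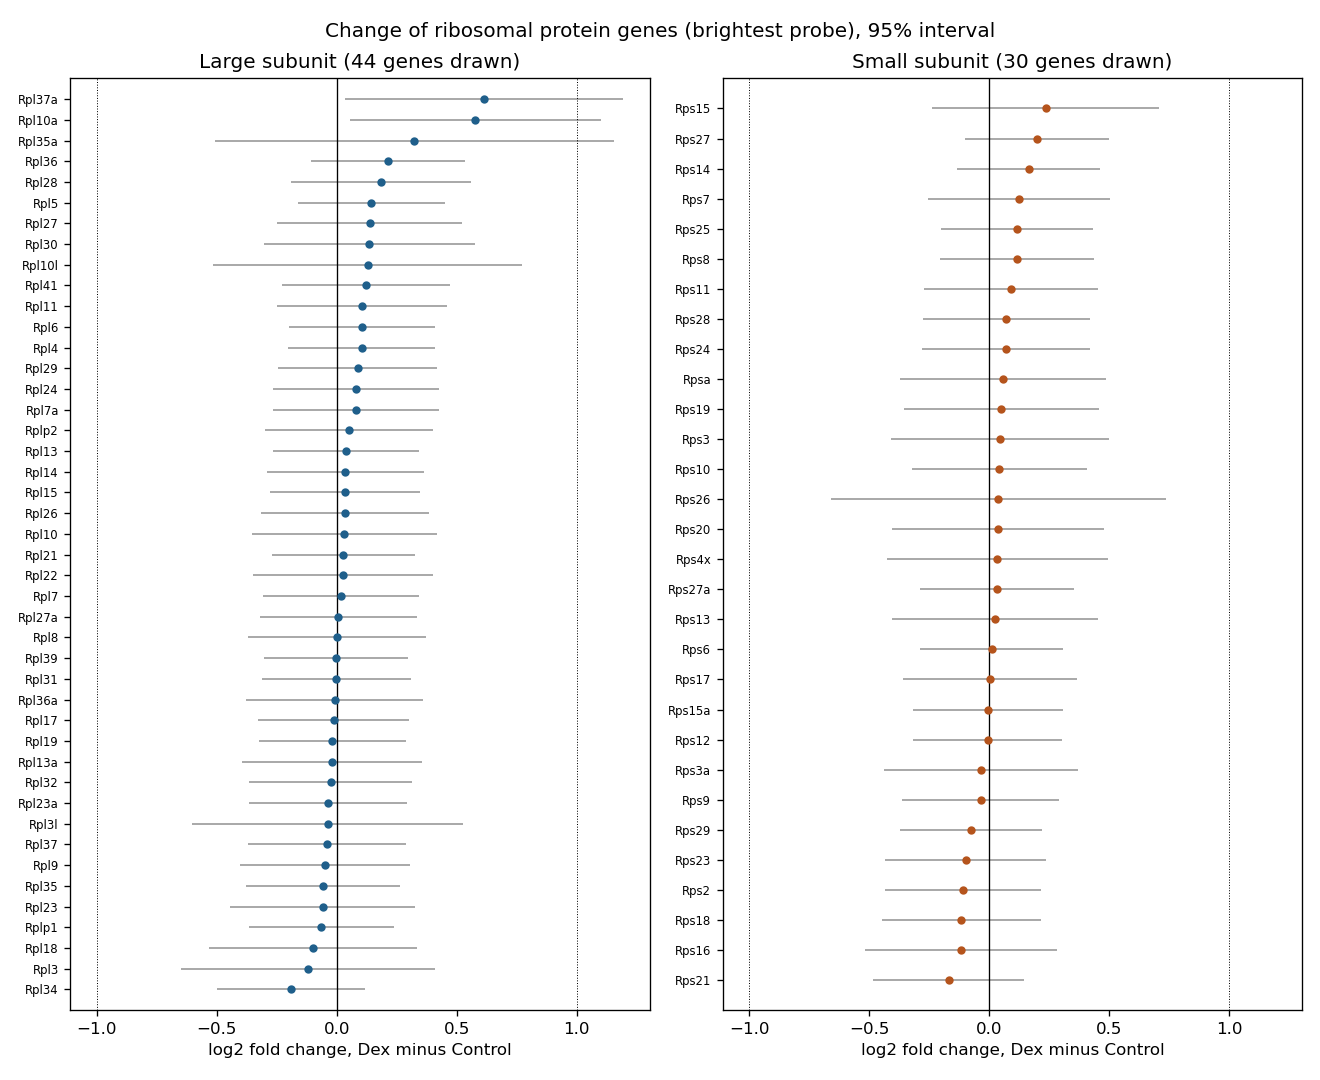
Log2 fold change of ribosomal protein genes, Dex minus Control (x axis), for the 44 genes of the large subunit and 30 of the small subunit (y axis). Points are the limma estimates of the gene's brightest probe, bars the 95% intervals with 4 arrays a group, and dotted lines mark a 2-fold change, which 71 of the 74 intervals drawn stay within. One gene of the small subunit is not drawn.

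The large subunit held the highest values. Rpl10a, the protein of the L1 stalk, near which spent tRNA leaves, had normalised log2 signals of 13.40, 13.11, 13.65 and 13.67 in Control and 14.24, 14.42, 13.67 and 13.80 in Dex. The groups did not overlap, but the lowest Dex array exceeded the highest Control array by little, and Dex 1 and Dex 2 stood well above the other Dex arrays. The log2 fold change was 0.58 (standard error 0.23, 95% interval 0.056 to 1.10, n = 4 and 4), with an adjusted p of 0.409 in limma. The array lists this probe on chromosome 4 of build rn3, while RefSeq places Rpl10a on chromosome 20, and 13 pseudogenes in RefSeq carry its name.

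Rpl37a, a small zinc-binding protein of the subunit, read 6.54, 6.70, 6.43 and 6.63 on Control arrays and 7.41, 7.73, 6.59 and 7.02 on Dex arrays. Here the groups overlapped, since Dex 3 lay below Control 2 and Control 4. The log2 fold change was 0.61 (standard error 0.25, 95% interval 0.036 to 1.19), with an adjusted p of 0.436. The array describes the probe as similar to 60S ribosomal protein L37a, and whether it reports Rpl37a itself or a copy was not tested. Its mean Control signal of 6.57 was the lowest among the brightest probes of the members. The first 13 bases of the probe match bases 38 to 50 from the annotated start of the gene in RefSeq. The window ends there, so the rest of the probe could not be compared. The probes of both genes are printed because they carry the 2 lowest p-values among the members, with those 13 bases in capitals.
Rpl10a probe, chr4:4988902-4988961: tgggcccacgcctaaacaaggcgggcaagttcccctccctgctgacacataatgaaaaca
Rpl37a probe, chr9:71987526-71987585: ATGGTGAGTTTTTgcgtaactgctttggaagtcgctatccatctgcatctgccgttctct

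Rpl35a, whose loss in people causes a failure of red cell formation, came next at 0.32. Its values were 13.93, 14.12, 13.60 and 12.93 in Control and 14.43, 14.49, 13.65 and 13.29 in Dex, so the groups overlapped widely and the 95% interval ran from -0.51 to 1.15. Leaving out 1 array moved the value between 0.084 and 0.55. A further probe of the gene gave 0.21. The values of Rpl36 (0.21), Rpl28 (0.18), Rpl5 (0.14) and Rpl27 (0.14) were smaller, each with an adjusted p of 0.67 or more. Rpl5 and Rpl11, in a complex with 5S RNA that is not built into a ribosome, can bind Mdm2, which links ribosome assembly to p53. Rpl5 read 16.10, 15.98, 15.98 and 15.85 on Control arrays and 16.10, 16.14, 16.14 and 16.10 on Dex arrays, with every Dex array above every Control array, though Control 1 and Dex 4 were all but equal. Its other 2 probes gave 0.044 and 0.16 with overlapping groups. Rpl11 had a value of 0.11 with an adjusted p of 0.864.

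The lowest value of all belonged to Rpl34, a protein of the outer face of the large subunit. It read 15.28, 15.25, 15.23 and 15.09 in Control and 14.95, 15.06, 15.11 and 14.97 in Dex, and the groups overlapped only through Control 4. The log2 fold change was -0.19 (standard error 0.13, 95% interval -0.50 to 0.12, adjusted p 0.7). Rpl3, a core protein beside the peptidyl transferase centre, was the next lowest within the large subunit at -0.12 (95% interval -0.65 to 0.41). Both its groups spanned a wide range, 13.62 to 14.28 in Control and 13.46 to 14.07 in Dex. Rpl18 (-0.099) and the stalk protein Rplp1 (-0.064) had still smaller values. A further probe of Rpl18 gave 0.065. Rpl41, the shortest of the ribosomal proteins, had a value of 0.12 with an adjusted p of 0.834.

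In the small subunit the values stayed between -0.17 and 0.23. Rps27, a zinc finger protein, had the most even separation of the members. Its signals were 15.69, 15.73, 15.61 and 15.64 on Control arrays and 15.92, 15.87, 15.80 and 15.89 on Dex arrays, all Dex arrays lying above all Control arrays. The log2 fold change was 0.20 (SD 0.053 in Control and 0.050 in Dex, 95% interval -0.099 to 0.50), with an adjusted p of 0.671. Rps14, which lines the mRNA path of the platform, behaved likewise, with 16.46, 16.47, 16.43 and 16.55 in Control against 16.71, 16.64, 16.61 and 16.61 in Dex. Its log2 fold change was 0.17 with an adjusted p of 0.723.

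Rps15 had the highest value of the subunit at 0.23, with signals from 13.18 to 13.58 in Control and from 13.25 to 13.99 in Dex that overlapped, and a range of 0.12 to 0.37 without any 1 array. Its dimmer probe, drawn from an expressed sequence tag and listed on the strand opposite to the main probe, was the member called by the signal to noise statistic. It read 10.93, 10.79, 10.75 and 10.85 in Control and 11.05, 11.28, 10.98 and 11.17 in Dex, a change of 0.29 (95% interval -0.040 to 0.61, adjusted p 0.548 in limma). At the other end, Rps21 read 16.15, 16.29, 16.15 and 16.05 in Control and 15.97, 16.08, 16.03 and 15.90 in Dex, with a log2 fold change of -0.17 (adjusted p 0.731) and an overlap only through Control 4. The values of Rps16 (-0.12), Rps18 (-0.12) and Rps2 (-0.11) were also below 0, but those 3 turned above 0, to 0.00083, 0.054 and 0.057, when arrays were scaled to their 75th percentile. Rps23 (-0.098), at the decoding centre, and Rps29 (-0.076) stayed below 0. The dimmer probes of Rps2 gave 0.042, 0.076 and 0.057 after quantile normalisation.

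Rps6, the classic target of the S6 kinases downstream of mTOR, had a log2 fold change of 0.011 (95% interval -0.29 to 0.31). Rps19, most often mutated in inherited red cell aplasia, had a value of 0.050, Rps27a, made as a fusion with ubiquitin, 0.033, and Rpsa, also known as a laminin receptor, 0.058. All adjusted p-values of these were 0.941 or more. The interval of Rps6 needs a caution, since its probe ranked so high that quantile normalisation set its value by rank alone: 18.21 on 5 arrays and 18.11 to 18.16 on the other 3. In all, 20 of the 112 member probes had a median rank among the brightest 50 of the array.

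**Figure D2:**
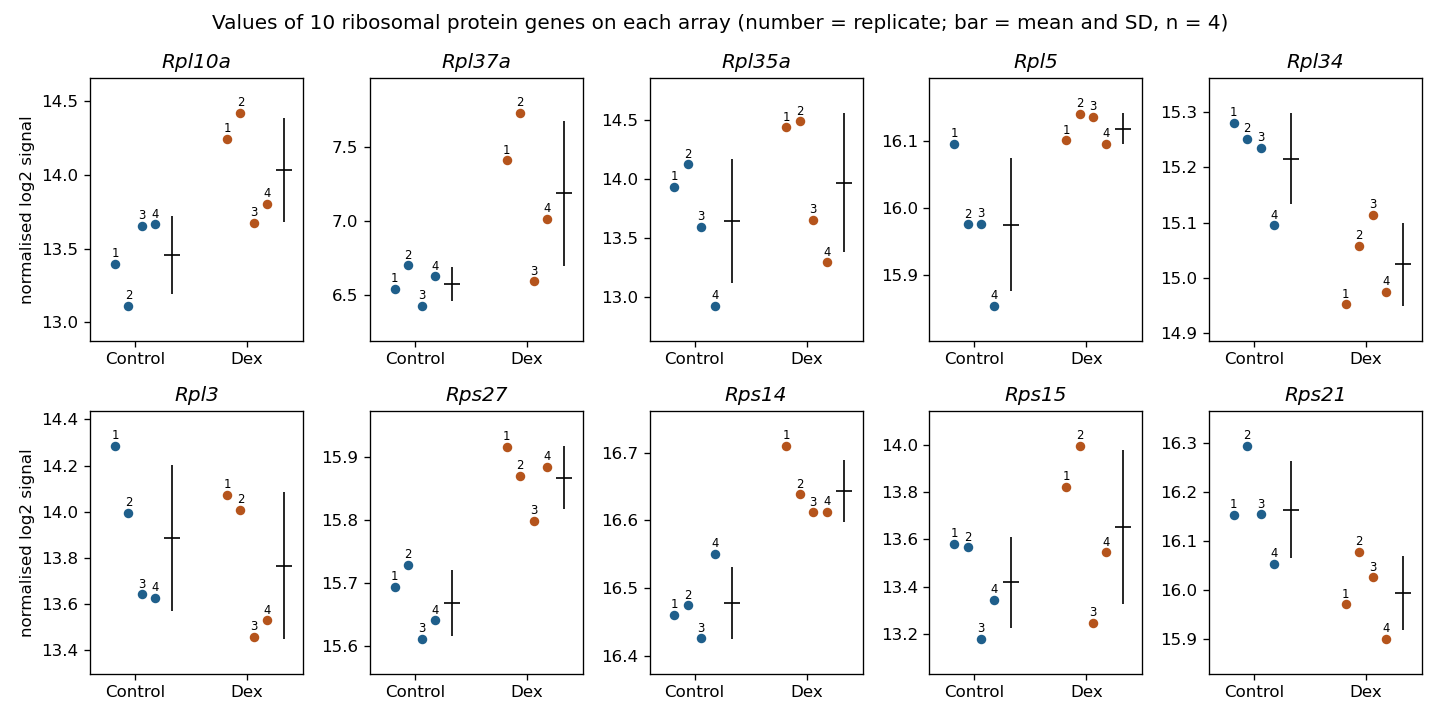
Normalised log2 signal (y axis, a separate range for each gene) of 10 ribosomal protein genes on each Control and Dex array. Numbers beside the points are replicate numbers and bars show the mean and SD of 4 arrays, with Rps27, Rps14, Rpl10a and Rpl5 free of overlap and Rpl35a and Rpl3 spread over a wider range within a group than between groups.

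Paralogs with limited tissue range were on the array for 2 genes. Rpl3l, the muscle form of Rpl3, had a log2 fold change of -0.037 (95% interval -0.60 to 0.53), and Rpl10l, the testis form of Rpl10, of 0.13 (95% interval -0.52 to 0.77). Rpl10 itself had a value of 0.032. The log2 ratio of paralog to parent rose by 0.083 for Rpl3l and 0.097 for Rpl10l on average, and neither shift passed the exact two-sided permutation test over the arrays (p = 0.771 and 0.6, both 0.771 after adjustment over the 2 pairs, with 0.0286 the smallest p that 70 assignments allow). For Rpl3l the SD of that ratio within a group was 0.57 in Control and 0.37 in Dex, several times the shift itself.

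Differences between arrays of the same group were larger than those between the groups. After quantile normalisation the median deviation of the large subunit genes from their own mean over arrays was 0.11, 0.020, -0.090 and -0.12 on Control arrays 1 to 4 and 0.10, 0.093, -0.048 and -0.053 on Dex arrays 1 to 4. The small subunit followed with 0.12, 0.042, -0.092 and -0.10 in Control and 0.14, 0.16, -0.11 and -0.12 in Dex. Both subunits thus stood high on the arrays numbered 1 and, mostly, 2, and low on those numbered 3 and 4, in either group. Dex 1 and Dex 2 were both above Dex 3 and Dex 4 for 85 of the 112 probes (75.9%, against 48.3% of all probes), and the same order held in Control for 76 (67.9%, against 27.5%). Of the probes well above background on all arrays 58.8% had this order in Dex and 32.6% in Control. Their median deviations on Dex arrays 1 to 4 were 0.12, 0.16, -0.15 and -0.15, so Dex 1 and Dex 2 stood above Dex 3 and Dex 4 there too.

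With same-numbered arrays set side by side, Dex was higher in all 4 pairs for 27 member probes (24.1%, against 13.1% of all probes) and lower in all 4 for 7 (6.25%, against 11.4%). Rpl35a differed by 0.50, 0.36, 0.058 and 0.37 in pairs 1 to 4 and Rps15 by 0.24, 0.43, 0.068 and 0.20. Rpl34 differed by -0.33, -0.19, -0.12 and -0.12 and Rps21 by -0.18, -0.22, -0.13 and -0.15. The pattern depended on the scaling. After 75th percentile scaling Dex was higher in all 4 pairs for 5 member probes (4.46%, against 8.03% of all) and lower for 0 (against 8.69% of all). No member probe was called with replicate number as a block in limma.

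Scaling each array to its 75th percentile instead widened this split in Dex for the members and narrowed it for the probes well above background on all arrays. Dex 1 and Dex 2 were both above Dex 3 and Dex 4 for 107 member probes (95.5%, against 50.4% of the probes well above background). The median deviations of the probes well above background were 0.079, 0.11, -0.090 and -0.11 on Dex arrays 1 to 4. The median deviations of the large subunit genes were 0.22, -0.013, -0.27 and -0.16 in Control and 0.40, 0.62, -0.37 and -0.41 in Dex. Those of the small subunit were 0.24, 0.0020, -0.27 and -0.17 in Control and 0.44, 0.69, -0.43 and -0.45 in Dex. The median change rose to 0.11 for the large and 0.095 for the small subunit, against -0.042 for all names. Dex 1 and Dex 2 also had the fewest probes well above background, 26474 and 24911, and 75th percentile signals of 425 and 401 against 266 and 264 on Dex 3 and Dex 4. Whether these values had a part in the split was not tested. Slide could be separated from treatment only on slide 1, which held Control 1 and Dex 3, while Control 2 to Control 4 shared slide 2 and the other Dex arrays slide 3. On slide 1 the median change was -0.16 for the large and -0.24 for the small subunit, the opposite sign to that over all arrays, from 1 array of each group. It is the change from Control 1 to Dex 3, whose median deviations after quantile normalisation were 0.11 and -0.048 for the large subunit. For the small subunit they were 0.12 and -0.11. Treatment cannot be told apart there from the difference between these arrays. After quantile normalisation the median SD of the members within a group was 0.12 in Control and 0.12 in Dex. Among probes well above background on all arrays it was 0.20 in Control and 0.39 in Dex. After 75th percentile scaling the members had a median SD of 0.22 in Control and 0.56 in Dex, and the probes well above background 0.21 and 0.46, so the narrow spread of the members rests on the quantile step.

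**Figure D3:**
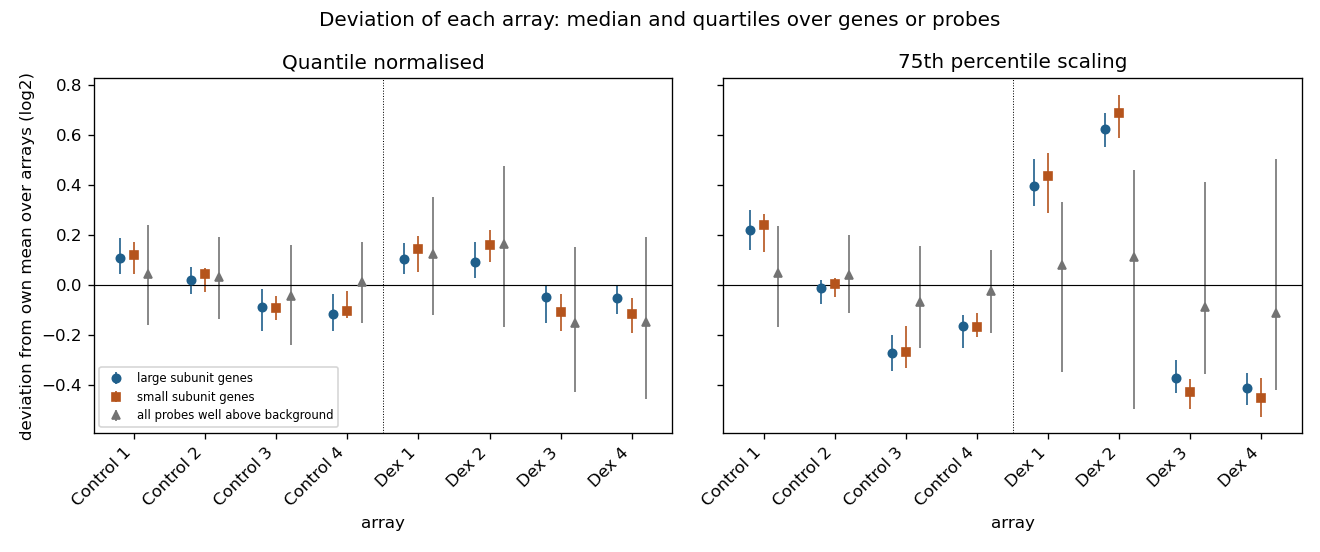
Deviation of the large subunit genes, the small subunit genes and all probes well above background from their own mean over the 8 arrays (y axis, log2) on each array (x axis), after quantile normalisation and after 75th percentile scaling. Points are medians and bars quartiles over genes or probes, and the subunits lie together on each array, with Dex 1 and Dex 2 above Dex 3 and Dex 4 in both panels.

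Probes of the same gene mostly lay close together. This says little about their agreement, since the changes of the members lay close together across genes too (quartiles -0.023 and 0.097). The second probe of Rpl37 is listed on the strand opposite to the first. It gave 0.44 where the main probe gave -0.042, the widest gap among the 25 genes with several probes. In 23 of those 25 the probes lay within 0.2 of each other. In 11 of the 25 genes the probes differed in sign. Processed copies are a further limit, because 73 of the 74 member genes found in RefSeq have at least 1 pseudogene that carries their name, 858 in all and up to 36 for Rps2. On the same strand, 13 member probes shared a run of at least 30 bases with a probe under another name. On the opposite strand, 11 shared such a run with another probe, of the same or another name. Further, 14 probes of 7 genes are listed on a chromosome other than the gene's in RefSeq. A member probe may therefore report several transcripts at once.

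A wider look at the array found 312 probes that are described as cytosolic ribosomal proteins or as similar to them but carry another name. This search was made after the values were seen. Their median log2 fold change was 0.056, 3 had an unadjusted p under 0.05 (0.962%, against 10.6% of all probes), and 1 was called, higher in Dex, where 0.563% of all probes were called higher. That probe is of RGD1566137, described as similar to ribosomal protein L10a and named Rpl10a-ps1, a pseudogene, in RefSeq. Whether the probe reports that pseudogene or another transcript was not tested. It read 9.66, 9.90, 9.44 and 9.42 in Control and 12.61, 12.64, 12.60 and 12.43 in Dex, with a wide gap between the groups. The log2 fold change was 2.96 (95% interval 2.59 to 3.34, adjusted p 0.000216 in limma), and 2.94 with slide as a fixed block, where it was not called (adjusted p 0.152). The probe has 60 bases, but its listed span on rn3 covers 2181 bases, and it shares no run longer than 5 bases with the Rpl10a probe above.
RGD1566137 probe, chr9:20100505-20102685, - strand: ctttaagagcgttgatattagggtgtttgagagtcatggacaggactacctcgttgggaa

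A separate list of ribosomal proteins under other names had 5 genes on the array, of which limma called 0. These 5 include Nedd8, a ubiquitin-like protein that is no ribosomal protein (-0.023), and their median was 0.10 with or without that gene. Arbp, the older name of the stalk protein Rplp0, had a log2 fold change of 0.29 (95% interval -0.11 to 0.69), Fau, which yields Rps30, 0.10, and Gnb2l1, the scaffold Rack1, 0.10. All 5 had an unadjusted p above 0.05. The 61 genes of mitochondrial ribosomal proteins, which serve the separate ribosome of mitochondria, had a median of 0.0058 with 0 called and 3 of 71 probes at an unadjusted p under 0.05 in limma (4.23%, against 10.6% of all probes). They were spread more widely than the cytosolic set, from -0.44 to 0.99.

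Among 51 ribosome assembly factors the median was 0.15, with 41 values above 0, and 1 gene was called, by 1 of 62 probes (1.61%, against 0.778% of all probes). Bysl, which is needed to build the small subunit, fell from 10.47, 10.57, 10.21 and 10.33 on the Control arrays to 9.06, 9.20, 8.50 and 8.48 on the Dex arrays. Its log2 fold change was -1.59 (95% interval -2.08 to -1.09, adjusted p 0.0186). The call was lost with replicate number as a block (adjusted p 0.0678), with arrays scaled to the 75th percentile (0.0767) or centred on probes well above background (0.138), with slide as a fixed block (0.702), and without any single array other than Dex 2 or Dex 3 (0.0505 to 0.0922). The value itself stayed between -1.97 and -1.36 under all alternatives, and calls over the whole array fell from 319 to 81 with the replicate block, 166 with 75th percentile scaling, 133 with centring, 96 to 249 without an array and 1 with the fixed slide block. Npm1, Ncl and Fbl, abundant nucleolar proteins, had values of 0.13, 0.21 and 0.11 and were not called.

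The 40 genes with names of translation initiation factors had a median of 0.11 and the 11 elongation and release factors 0.11. Of the first, only Eif4ebp1 was called, by 2 of 72 probes (2.78%, against 0.778%), and it encodes not a factor but the repressor that binds Eif4e when mTOR is inactive. Its main probe rose from 12.11, 12.05, 12.13 and 12.26 in Control to 13.04, 13.26, 12.86 and 12.93 in Dex, a log2 fold change of 0.89 (95% interval 0.54 to 1.23, adjusted p 0.0479), and a further probe gave 0.90 (adjusted p 0.0484). The call of the main probe was lost with replicate number as a block (adjusted p 0.194), with 75th percentile scaling (0.516), centring (0.684) or slide as a fixed block (0.771), with the mean of its probes (0.0537), and whichever array was left out (0.0711 to 0.198), while the value stayed between 0.76 and 0.94 under all alternatives. Among the 22 controllers in the mTOR and Myc group, to which Eif4ebp1 also belongs, 3 of 30 probes were called (10%, against 0.778% of all probes). Ddit4, also called Redd1, a stress-induced inhibitor of mTOR, rose from 9.28, 9.49, 8.89 and 9.34 to 12.97, 12.86, 12.83 and 13.27, by 3.73 on the log2 scale (13.3-fold, adjusted p 0.000153), and by 3.55 within slide 1. It was not called with slide as a fixed block (adjusted p 0.135), and was called when any single array was left out. Myc itself had a value of 0.098 with an adjusted p of 0.911. Besides Ddit4 and Eif4ebp1, 3 controllers had an unadjusted p under 0.05 in limma without being called, which makes 5 of 22 genes in all (22.7%, against 10.4% of all names). The 3 are named after their values were seen. Eif4ebp2, a repressor of the same kind as Eif4ebp1, had a value of -0.52 (adjusted p 0.35), the kinase Akt1 of -0.40 (adjusted p 0.33) and Mxd4, an antagonist of Myc, of 0.37 (adjusted p 0.376).

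**Figure D4:**
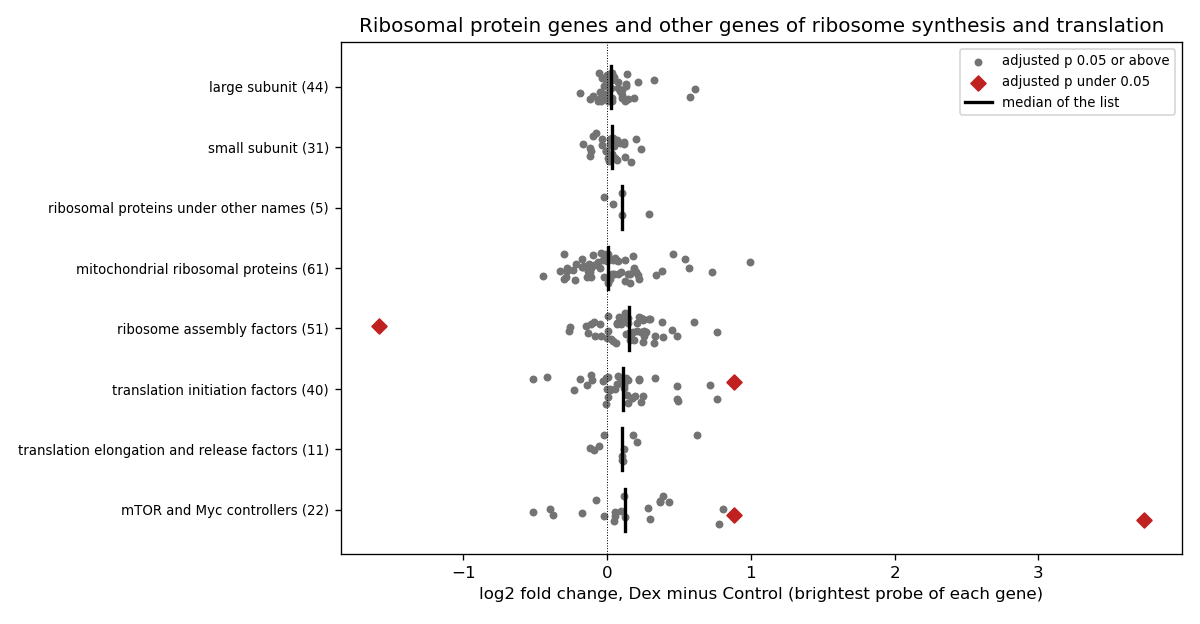
Log2 fold change, Dex minus Control (x axis), of the brightest probe of each gene in 8 lists (y axis, number of genes in brackets). Grey points are genes with an adjusted p of 0.05 or above, red diamonds those under 0.05 and black bars the medians, and the red points are Bysl at -1.59, Eif4ebp1 at 0.89 in 2 lists and Ddit4 at 3.73.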

How the data were processed

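The authors hybridized Cy3-labeled RNA to Agilent 1-color Whole Rat Genome arrays. The deposited scanner output holds each spot's intensity after the software's background correction, not normalized between arrays, and, among other columns, 0 or 1 flags for background, saturation and outliers. The authors also deposited log2 values, quantile normalized and summarized per probe. The methods name 3 biological replicates a group, and the labels give 4 arrays, all of them used.

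Here log2 intensities were quantile normalized and spots of a probe combined by median polish, outlier spots left out, which left 16 missing values. Positions are on rn3, per the file headers. limma (version 3.58.1, R version 4.3.3; lmFit and eBayes, two-sided, no block) tested all 41012 probes with Benjamini-Hochberg adjustment. The signal to noise statistic was compared with all 70 assignments pooled over probes, one-tailed at a nominal p of 0.01 and a fold change of 1.2. The tests were checked on simulated data. Same-numbered arrays deviated together over all probes (r = 0.397, 0.129, 0.55 and 0.184), so replicate numbers were taken to pair the samples. Other arrays correlated as well (Control 1 with Dex 2 0.401, Control 3 with Dex 4 0.392), so the values show arrays 1 and 2 apart from 3 and 4 more than pairs. Whether replicates came from separate animals is not stated beyond the pooling, so p-values measure the spread between these arrays, whose number limits the precision. The named genes are the 10 highest and 10 lowest changes of a brightest probe, the paralogs, 7 fixed names and the called genes of the lists. Some uncalled genes of the lists, such as Npm1, Myc and Arbp, and some cell type markers are named outside this rule. Members and lists were chosen with earlier results of these data known. Some genes are counted in the totals but not reported here by name.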

Additional observations from a re-analysis of the deposited data

Results flagged for a closer look

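In 68 groups of 4 arrays (the named genes and the medians of both subunits, in Control and in Dex), 3 held an array that stood apart from the other 3 by Dixon's test at the 95% level, which chance alone flags in about 5% of groups. Rps23 on Control 4 read 18.107 against 18.0797 to 18.0804 on the other Control arrays. Rps6 on Dex 4 read 18.107 against 18.2102 on each of the other Dex arrays. Both probes are among the brightest on the array, where quantile normalisation leaves a few fixed values. Rps27a on Dex 2 read 16.2432 against 15.9608 to 15.9956.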

How the results depend on the processing

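The count of 0 called member probes held under every alternative run except the signal to noise statistic, which called 1. All of the 29 named member genes stayed uncalled by limma under every alternative. Their values are small, so signs moved: 41 of 580 values, over 19 genes, had the opposite sign. With 75th percentile scaling Rps16, Rps18, Rps2 and Rplp1 were at 0.00083, 0.054, 0.057 and 0.023, and with centring on probes well above background at 0.0073, 0.061, 0.063 and 0.029. With normexp, Rpl10 was at -0.0042 and Rps6 at -0.012, with slide as a random block Rpl3l was at 0.054, and with the mean of all probes of a gene Rps2 was at 0.016 and Rpl10 at -0.023. With slide as a fixed block, which rests on 1 array of each group, the medians were -0.16 for the large and -0.24 for the small subunit, -0.44 for mitochondrial ribosomal proteins, -0.20 for assembly factors, -0.018 for initiation factors, 8.2e-05 for elongation and release factors and -0.11 for the list of ribosomal proteins under other names, Nedd8 included. Under it Rpl35a was at -0.28, Rps15 at -0.34, Rpl36 at -0.013, Rpl28 at -0.16, Rpl27 at -0.20, Rpl10 at -0.34, Rpl10l at -0.73, Rpl11 at -0.20, Rpl41 at -0.16, Rps19 at -0.44, Rps27a at -0.083 and Rpsa at -0.36. Among genes that kept their sign under it, Rpl37a was at 0.050, Rpl10a at 0.28 and Rpl3 at -0.83. The cause was not tested.

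Leaving out each array in turn gave medians of 0.0015 to 0.074 for the large and -0.027 to 0.091 for the small subunit. The ranges of single genes were 0.084 to 0.55 for Rpl35a, 0.12 to 0.37 for Rps15, 0.058 to 0.22 for Rpl27, 0.10 to 0.25 for Rpl28, 0.43 to 0.81 for Rpl37a, 0.45 to 0.70 for Rpl10a, -0.19 to -0.019 for Rpl18, -0.21 to -0.048 for Rps16, -0.16 to -0.076 for Rps18, -0.16 to -0.049 for Rps23, -0.16 to -0.062 for Rps2, -0.092 to -0.037 for Rplp1, 0.050 to 0.17 for Rpl11, 0.074 to 0.21 for Rpl41, -0.032 to 0.10 for Rpl10, -0.020 to 0.32 for Rpl10l, -0.22 to 0.012 for Rpl3, -0.22 to 0.11 for Rpl3l, -0.031 to 0.13 for Rps19, -0.033 to 0.061 for Rps27a, -0.011 to 0.037 for Rps6, -0.029 to 0.14 for Rpsa, -0.13 to 0.29 for the difference between Rpl3l and Rpl3 and 0.012 to 0.22 for that between Rpl10l and Rpl10. The median of the mTOR and Myc controllers was 0.13 to 0.21, that of initiation factors 0.012 to 0.17, of assembly factors 0.060 to 0.24, of mitochondrial ribosomal proteins -0.11 to 0.11, of the list under other names 0.061 to 0.16 and that of elongation and release factors 0.039 to 0.12, which was 0.023 with the mean of all probes.

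The counts of called genes in the lists, 1 assembly factor, 1 initiation factor name and 2 controllers, changed more, as did the 319 calls over all probes. Leaving out an array gave 0 to 1 assembly factors, 0 to 0 initiation factors and 1 to 1 controllers, with 96 to 249 calls over all probes. 75th percentile scaling, centring and the replicate block each gave 0, 0 and 1, with 166, 133 and 81 calls over all probes, and the fixed slide block 0, 0 and 0 with 1. normexp gave 3, 4 and 4 with 915 over all probes, the signal to noise statistic 4, 7 and 6 with 3 mitochondrial ribosomal proteins and 2784 over all probes, and the mean of all probes 0 initiation factors and 1 controller. The random slide block, with a consensus correlation of -0.235, gave 2 assembly and 3 initiation factors with 2 mitochondrial ribosomal proteins and 1838 over all probes, and the spread modelled on the mean level, added after the data were seen, 2 and 3 with 1 and 726. The replicate block left the 2 paralog differences at 0.083 and 0.097 (adjusted p 0.625 by the exact two-sided test over sign changes, which cannot go below 0.125 with 4 pairs and so could not pass the threshold) and, apart from Bysl and Eif4ebp1, changed no call of a gene named here. Signals near background set no limit on the members, all of which were well above it.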
